A study of Homo sapiens with 6 samples.

Results

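The BTB zinc finger family comprises transcription factors that carry a BTB domain at one end and zinc fingers at the other. Members were taken from the deposited gene table by name, as protein-coding genes called ZBTB followed by a digit, with BCL6, BCL6B, PATZ1, HIC1 and HIC2 added. This gave 47 genes of 58735 listed, 42 of them by the ZBTB name. The RNA came from U937, a human myeloid cell line whose labels read bone marrow and acute promyelocytic leukaemia. Libraries of genotype oeBCL6B numbered 3, made by lentiviral overexpression according to the series' design text, and libraries of genotype NC, titled control, also numbered 3. All 6 carried the same batch label and the same treatment label, phenotyping experiment. The promoter that drives BCL6B and the vector of the control cells are not given in the sources read. Nothing there says that the replicates were separate cultures, so the p-values rest on a spread that may be technical.

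In BTB zinc finger proteins the zinc fingers bind DNA, while the BTB domain pairs protein chains and recruits corepressors such as NCOR1 and BCOR, which bring histone deacetylases to the bound gene. The BTB domain of some members also binds CUL3, the scaffold of a ubiquitin ligase. Most described members repress transcription, and in blood the family is known for setting cell fate: BCL6 in germinal centre B cells, ZBTB7B in helper T cells, ZBTB16 in innate-like T cells and ZBTB46 in classical dendritic cells. BCL6B, also called BAZF, is the closest relative of BCL6.

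Each oeBCL6B library held 17095256 to 18870186 gene-assigned reads and each control 16481014 to 17627289. The label was checked against markers fixed for several cell types. SPI1, CD33, MPO and CD4, which mark myeloid cells, were detected, but ELANE, a defining gene of promyelocytes, was near the detection filter at 0.519 FPKM with oeBCL6B and 0.462 FPKM in controls (FPKM counts fragments relative to gene length and library depth), and the monocyte genes CD14 and CD68 were near 0. LYZ, the one gene of the monocyte list that passed, was lower, at 9.35 FPKM with oeBCL6B and 15.9 FPKM in controls (limma adjusted p = 0.00301). The granulocytic precursor genes differed between the groups. Of 6, 5 were lower with oeBCL6B (MPO, AZU1, PRTN3, CTSG and CD33), and the summed level of all 6 was 1906 to 2104 FPKM in the oeBCL6B libraries against 2541 to 2710 FPKM in the controls. MPO made up most of this sum, with means of 1668 FPKM with oeBCL6B and 2025 FPKM in controls. Among all genes tested, 10.1% were lower. The MPO call was lost in all 6 fits with 1 library left out (adjusted p 0.0595 to 0.123), and the other 4 held in all 6. Among genes of other lineages, PAX5 (B cells) and the globin genes HBA1, HBA2 and HBB (erythroid cells) had no read, and MS4A1 had 1 read in all. NCAM1, in the T and NK cell list, and ITGA2B, in the erythroid and megakaryocyte list, were higher with oeBCL6B. NCAM1 held in 5 of 6 such fits and entered the test only through the oeBCL6B libraries, since its controls were at 0.299 to 0.310 FPKM, and ITGA2B held in 2 of 6. The summed level of the first list was 5.12 to 6.75 FPKM with oeBCL6B and 3.44 to 4.64 FPKM in controls, and of the second 1.20 to 1.70 FPKM with oeBCL6B and 0.559 to 0.880 FPKM in controls. The B cell genes CD79A and CD79B were detected, CD79A at 3.01 FPKM with oeBCL6B and 2.76 FPKM in controls and CD79B at 2.66 FPKM with oeBCL6B and 2.96 FPKM in controls, and did not pass. Of the epithelial and stromal markers, CDH1, KRT19, COL1A2 and CDH5 had no read, while EPCAM was at 6.19 FPKM with oeBCL6B and 5.76 FPKM in controls and PECAM1 at 3.27 FPKM with oeBCL6B and 2.69 FPKM in controls, neither past the test. The part that these marker differences play in the results on the family was not tested, and in bulk libraries fewer cells of a type and less RNA per cell cannot be told apart.

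Levels in the family ran from 0 to 19.7 FPKM with oeBCL6B and from 0 to 14.1 FPKM in controls, both highest for ZBTB40. Of the 47 members, 45 had at least 1 read and 37 passed the filter for testing, which asked for 0.5 FPKM or more in 3 or more libraries. Of these 37, 6 averaged 10 FPKM or more over all libraries, 28 between 1 and 10 FPKM, and 3 between 0.5 and 1 FPKM. ZBTB8B and ZBTB9 had no read in any library. The remaining 8 below the filter were BCL6, HIC1, ZBTB16, ZBTB20, ZBTB32, ZBTB38, ZBTB7C and ZBTB8A. Summed over the members other than BCL6B, the level was 203, 199 and 211 FPKM in the oeBCL6B libraries and 198, 189 and 199.985 FPKM in the controls, ranges that overlap.

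**Figure D1:**
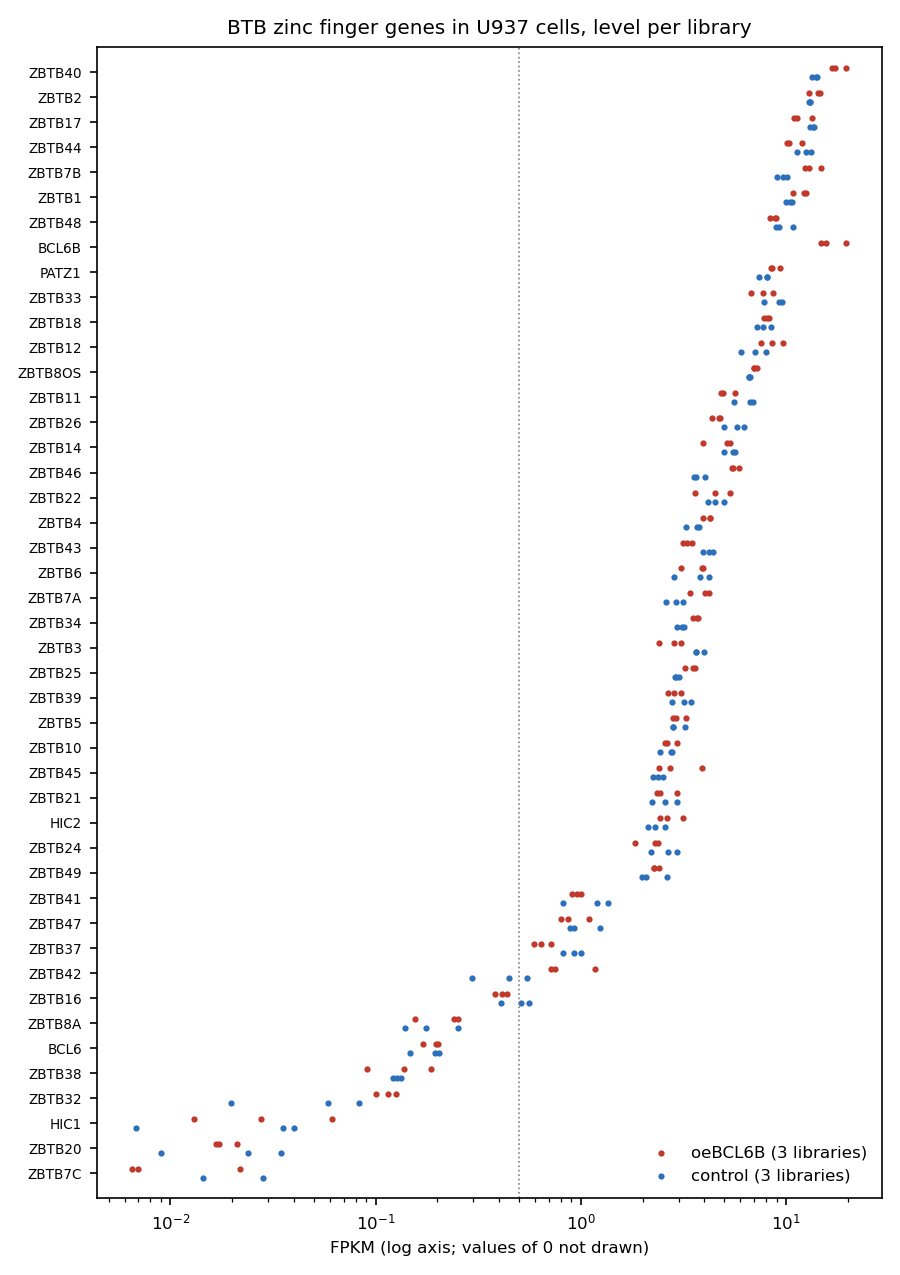
FPKM of each of the 45 BTB zinc finger genes with a read, on a log axis, with 1 point per library (red, oeBCL6B; blue, control; 3 each), genes ordered by their mean level; the dotted line is the filter at 0.5 FPKM. BCL6B has no blue points because all 3 controls are at 0, and in most other rows the red and blue points lie close together.

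Of the 5 most abundant members, ZBTB40 and ZBTB7B differed between the groups and ZBTB2, ZBTB17 and ZBTB44 did not pass the test. ZBTB2 had 14.6, 12.9 and 14.4 FPKM with oeBCL6B and 12.9, 13.1 and 13.1 FPKM in controls. ZBTB17, also called MIZ1, a partner of MYC in repressing genes, had 10.9, 11.4 and 13.3 FPKM with oeBCL6B and 13.1, 13.5 and 13.7 FPKM in controls. ZBTB44 had 11.97, 10.3 and 10.2 FPKM with oeBCL6B and 12.5, 11.3 and 13.2 FPKM in controls. For each of these 3 genes the libraries of the groups overlapped, with limma adjusted p of 0.303, 0.164 and 0.179.

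BCL6B (ENSG00000161940, GRCh38 chromosome 17, 7023020 to 7030290, plus strand) is the targeted gene and checks the labels. It had 14.8, 15.7 and 19.5 FPKM in the oeBCL6B libraries, from 4156 reads, and no read in any control. Its mean was 16.7 ± 2.52 FPKM (SD, n = 3), and with 3 counts allowed for a count of 0 over the control group, 0.0127 FPKM, it was at least 1311-fold higher (log2 change 4.13, SE 0.104, limma adjusted p = 1.6e-05). Among the members it ranked 2 in each oeBCL6B library, behind ZBTB40. The sources do not give how much of the gene the introduced copy holds, so its FPKM, which divides by the whole gene length of 4373 bases, is an uncertain measure of its abundance. BCL6 stayed low, at 0.170, 0.198 and 0.202 FPKM with oeBCL6B and 0.147, 0.203 and 0.194 FPKM in controls. Its groups overlapped, and the exact permutation p was 0.7 on 122 reads.

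Of the 37 members tested, 7 passed at a Benjamini-Hochberg adjusted p of 0.05 in limma, which is 18.9%, against 18.3% of all 14662 genes tested. BCL6B, ZBTB46, ZBTB7B, ZBTB40 and ZBTB7A were higher, 5 of 37, where 8.18% of all genes were higher. ZBTB3 and ZBTB43 were lower, 2 of 37, where 10.1% of all genes were lower. BCL6B, as the introduced gene, met the filter only through the oeBCL6B libraries, and its call follows from the design. Without BCL6B the count was 6 of 36, or 16.7%, with 4 higher and 2 lower. In this fit the share of the family that changed was therefore close to the share of all genes. The median log2 change over the 36 members other than BCL6B was 0.021 and over all tested genes -0.018. The libraries of the groups did not overlap for 16 of the 37 members, 43.2%, against 40% of all genes. Without BCL6B this was 15 of 36, 41.7%. The 16 comprised 12 that lay higher, BCL6B among them, and 4 that lay lower. The split by direction was not counted over all genes. With limma voom on the recovered reads 13 of 37 members passed, and 3680 of 14662 genes, with ZBTB1, ZBTB11, ZBTB25, ZBTB34, ZBTB37 and ZBTB42 added to the 7. Without a filter on low values 4 of 45 members passed, BCL6B, ZBTB46, ZBTB7B and ZBTB40, and 1588 of 30382 genes. In both of these settings the family's share, BCL6B included, was above that of all genes, and the difference was not tested.

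**Figure D2:**
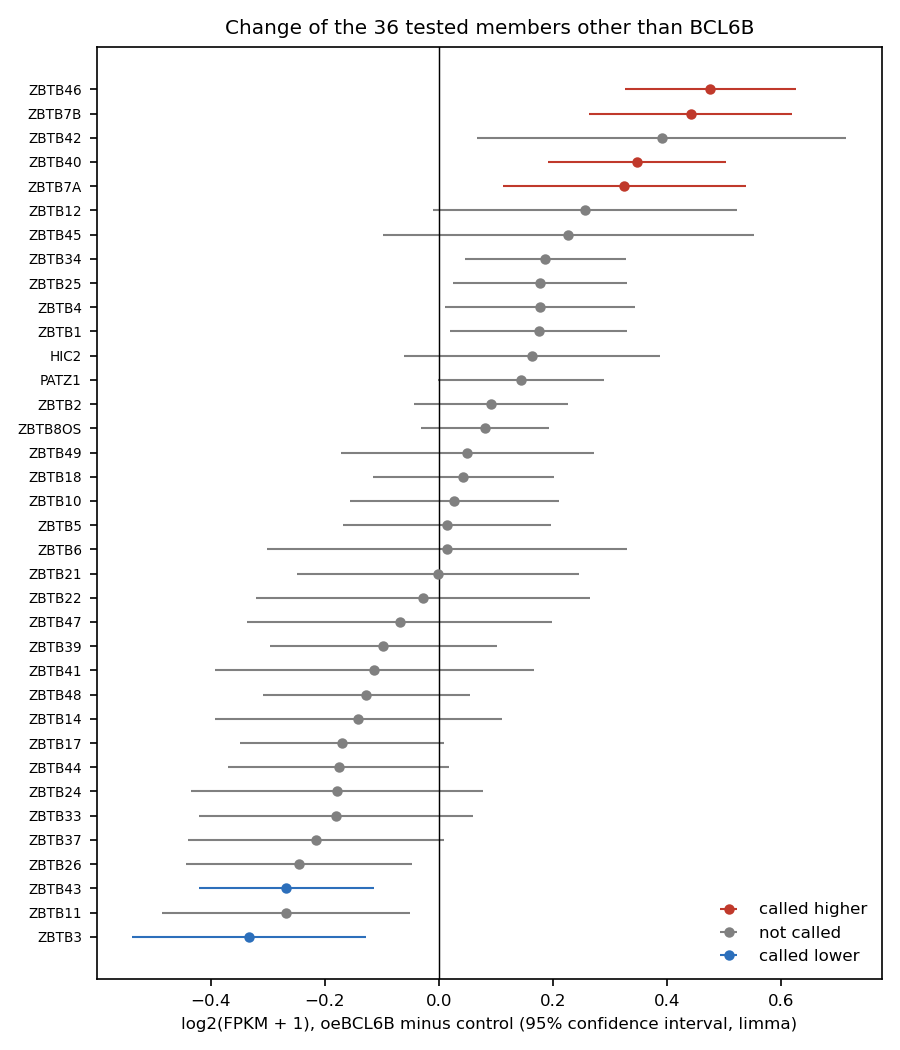
Difference of mean log2(FPKM + 1), oeBCL6B minus control, for the 36 tested members other than BCL6B, with limma's 95% confidence interval as the bar; red points passed as higher, blue as lower and grey did not pass. ZBTB46 is at the top at 0.48 and ZBTB3 at the bottom at -0.33, and most intervals cross 0.

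Of the members that changed, 3 have known roles in blood cell fate. ZBTB46 (ENSG00000130584, GRCh38 chromosome 20, 63743666 to 63831244, minus strand), a repressor that marks classical dendritic cells, had 5.43, 5.50 and 5.87 FPKM with oeBCL6B and 3.58, 4.02 and 3.66 FPKM in controls. All oeBCL6B libraries lay above all controls, 1.49-fold in the mean (log2 change 0.48, SE 0.0633, limma adjusted p = 0.00514). ZBTB7B (ENSG00000160685, GRCh38 chromosome 1, 155002630 to 155018522, plus strand), known as ThPOK, which commits developing T cells to the helper fate, had 13.0, 12.4 and 14.8 FPKM with oeBCL6B and 9.001, 10.1 and 9.66 FPKM in controls. These groups were also separate, with a 1.40-fold higher mean (log2 change 0.44, SE 0.0751, limma adjusted p = 0.0107). Both calls held whichever 1 library was left out, with adjusted p at most 0.0274 for ZBTB46 and 0.0434 for ZBTB7B. ZBTB7A (ENSG00000178951, GRCh38 chromosome 19, 4044364 to 4066945, minus strand), which represses the fetal globin genes in red cell precursors, had 3.42, 4.01 and 4.19 FPKM with oeBCL6B and 2.92, 2.59 and 3.16 FPKM in controls. It was 1.34-fold higher with the groups separate (log2 change 0.33, SE 0.0900, limma adjusted p = 0.0490), but left the called set when any 1 library other than oeBCL6B replicate 1 was left out, with adjusted p of 0.0734 to 0.136.

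ZBTB40 (ENSG00000184677, GRCh38 chromosome 1, 22428838 to 22531157, plus strand), the most abundant member, had 16.8, 17.4 and 19.7 FPKM with oeBCL6B and 14.1, 13.5 and 14.0 FPKM in controls. The groups were separate and the mean 1.29-fold higher (log2 change 0.35, SE 0.0657, limma adjusted p = 0.0152), and among fits with 1 library left out the call ended only without control replicate 3, at adjusted p = 0.0539. The members that were lower were ZBTB43 and ZBTB3. ZBTB43 (ENSG00000169155, GRCh38 chromosome 9, 126805006 to 126838210, plus strand) had 3.47, 3.29 and 3.14 FPKM with oeBCL6B and 3.95, 4.38 and 4.19 FPKM in controls. Its mean was 79.0% of the control mean with the groups separate (log2 change -0.27, SE 0.0646, limma adjusted p = 0.0329). ZBTB3 (ENSG00000185670, GRCh38 chromosome 11, 62748319 to 62754188, minus strand) had 2.40, 3.09 and 2.83 FPKM with oeBCL6B and 3.62, 3.62 and 3.98 FPKM in controls. It was at 74.1% of the control mean, again with the groups separate (log2 change -0.33, SE 0.0863, limma adjusted p = 0.0403). With 1 library left out, ZBTB43 kept its call only without oeBCL6B replicate 1 (adjusted p = 0.0437) and was at 0.0652 to 0.1004 without each of the others. ZBTB3 was lost in all 6 such fits, at 0.0502 to 0.126.

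**Figure D3:**
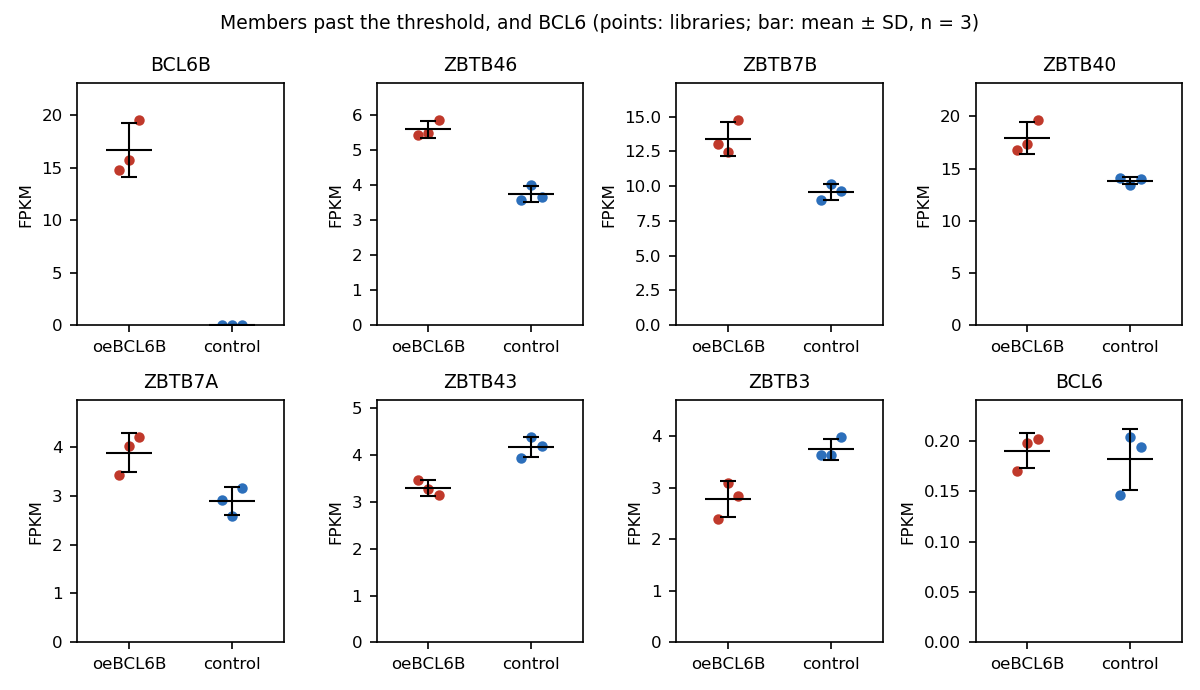
FPKM of the 7 members that passed and of BCL6, oeBCL6B left and control right, with 1 point per library and the bars giving mean ± SD (n = 3). In the 7 panels of members that passed, no oeBCL6B point overlaps a control point, while the BCL6 groups overlap below 0.25 FPKM.

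Promoters are shown, among members that passed the test, for the 2 with the largest rise after BCL6B on the log2(FPKM + 1) scale and for the one with the largest fall, to set their base composition side by side. Each is the 250 bases before the RefSeq start on GRCh38.p14, 5′ to 3′ on the gene's strand, with CG in capitals.
ZBTB46, chr20:63831265-63831514, minus strand: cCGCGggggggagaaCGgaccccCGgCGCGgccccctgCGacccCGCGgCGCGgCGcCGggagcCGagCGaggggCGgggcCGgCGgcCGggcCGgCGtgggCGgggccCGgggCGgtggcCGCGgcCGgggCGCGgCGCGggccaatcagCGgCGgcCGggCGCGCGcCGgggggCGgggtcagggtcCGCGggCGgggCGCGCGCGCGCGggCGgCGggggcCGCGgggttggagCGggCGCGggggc
ZBTB7B, chr1:155002399-155002648, plus strand: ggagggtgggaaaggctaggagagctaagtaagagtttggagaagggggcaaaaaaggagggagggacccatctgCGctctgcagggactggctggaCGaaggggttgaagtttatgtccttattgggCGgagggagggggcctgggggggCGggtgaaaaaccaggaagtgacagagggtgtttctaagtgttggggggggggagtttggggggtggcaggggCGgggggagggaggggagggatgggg
ZBTB3, chr11:62754161-62754410, minus strand: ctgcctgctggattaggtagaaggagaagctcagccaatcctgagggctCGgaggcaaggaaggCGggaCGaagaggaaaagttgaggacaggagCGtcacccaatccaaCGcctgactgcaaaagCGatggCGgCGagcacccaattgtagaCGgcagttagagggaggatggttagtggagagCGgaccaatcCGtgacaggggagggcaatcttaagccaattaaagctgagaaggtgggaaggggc
The ZBTB46 window held 55 CG pairs, and 0.0256% of 35116 RefSeq windows, itself included, held at least as many. The ZBTB7B window held 5 and the ZBTB3 window 11. The median was 21 over the windows of 38 members nearest to their annotated starts. With every window of a gene counted, it was 16 over the 73 member windows and 11 over all RefSeq windows. Windows of ZBTB43, with 20, and ZBTB7A, with 22, lay near the median of the nearest windows.

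Windows were found for 38 of the 47 members, 73 in all. The BCL6 core TTCCTAGAA, on either strand, was in none of the 73, against 0.313% of all windows. The looser TTCNNNGAA, which contains it, was in 3 of the 73 (BCL6, ZBTB14 and ZBTB38), 4.11% against 6.57% of all windows. The ZBTB33 motif TCCTGCNA was in 5 of the 73 (ZBTB18, ZBTB20, ZBTB38, ZBTB47 and ZBTB7C), 6.85% against 3.74%. A gene can have several windows, some far from its annotated start. The RefSeq start lay 523065 bases from it for the ZBTB20 window with this motif, 62212 for ZBTB38, 35125 for ZBTB7C, 2344 for ZBTB18 and 13 for ZBTB47. No window of the 5 changed members with one held any of the 3, and BCL6B and ZBTB40 had no window.

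Just outside the threshold were ZBTB34, ZBTB26, ZBTB11 and ZBTB42, with limma adjusted p of 0.0732, 0.0869, 0.0877 and 0.0923. ZBTB11 is needed for neutrophil development in zebrafish. ZBTB42 had the widest difference of the uncalled members, at 0.748, 1.175 and 0.716 FPKM with oeBCL6B and 0.446, 0.295 and 0.546 FPKM in controls. This was 2.05-fold in the mean on 283 reads in all, and ZBTB42 met the filter only through the oeBCL6B libraries. ZBTB34 lies 22454 bases from ZBTB43 on chromosome 9, on the same strand, and had 3.68, 3.53 and 3.73 FPKM with oeBCL6B and 3.10, 2.96 and 3.19 FPKM in controls. The FPKM ratio of ZBTB43 to ZBTB34 was 0.943, 0.930 and 0.842 with oeBCL6B and 1.27, 1.48 and 1.31 in controls. This pair was chosen after its values were seen and was not tested.

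The other uncalled members include several with known roles. The methyl-CpG binding members ZBTB4, ZBTB33 (Kaiso) and ZBTB38 showed no call, with adjusted p of 0.127 for ZBTB4 and 0.258 for ZBTB33, and ZBTB38 below the filter. ZBTB48, which binds telomeric repeats, gave 0.290, ZBTB24, mutated in an immunodeficiency with DNA methylation defects, gave 0.292, and ZBTB18, a repressor needed for brain development, gave 0.700. ZBTB1 and ZBTB25, with 1502 bases shared between their opposite-strand genes, had adjusted p of 0.110 and 0.102, each with the oeBCL6B libraries above the controls. PATZ1, HIC2 and the remaining ZBTB2, ZBTB5, ZBTB6, ZBTB10, ZBTB12, ZBTB14, ZBTB17, ZBTB21, ZBTB22, ZBTB37, ZBTB39, ZBTB41, ZBTB44, ZBTB45, ZBTB47 and ZBTB49 also did not pass. ZBTB8OS, which matches the name rule but encodes archease, a tRNA ligase cofactor, had an adjusted p of 0.282. In 9 of the 30 uncalled members the groups did not overlap, beside 40% of all tested genes, called ones included. The share was not counted over uncalled genes alone or by direction, so these 9 are a description only. Of the 9, the 7 that lay higher were ZBTB42, ZBTB34, ZBTB25, ZBTB1, ZBTB4, PATZ1 and ZBTB8OS, and the 2 that lay lower were ZBTB26 and ZBTB37. ZBTB1, needed for lymphoid development in mice, had 12.2, 10.8 and 12.6 FPKM with oeBCL6B and 10.6, 10.02 and 10.4 FPKM in controls. PATZ1, a regulator of thymocyte development, had 8.49, 8.54 and 9.31 FPKM with oeBCL6B and 8.07, 8.12 and 7.37 FPKM in controls. ZBTB4 had 4.27, 4.26 and 3.93 FPKM with oeBCL6B and 3.77, 3.67 and 3.25 FPKM in controls. These differences were 1.14-fold, 1.12-fold and 1.17-fold in the mean and did not pass, PATZ1 at an adjusted p of 0.149. ZBTB37 had 0.641, 0.716 and 0.595 FPKM with oeBCL6B and 0.998, 0.824 and 0.930 FPKM in controls, a mean at 71.0% of the control mean, with an adjusted p of 0.159. The smallest difference was that of ZBTB21, which averaged 2.58 FPKM with oeBCL6B and 2.59 FPKM in controls (log2 change -0.0016, 95% interval -0.25 to 0.25). Over all 30 uncalled members the largest log2 change in either direction was 0.39, and their 95% intervals ran from -0.49 to 0.71.

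Among members below the filter, ZBTB32 had 0.115, 0.101 and 0.126 FPKM with oeBCL6B and 0.059, 0.020 and 0.083 FPKM in controls, all 3 above the controls on 26 reads in all, with an exact permutation p of 0.1, the smallest 3 libraries against 3 can give. ZBTB16, fused to RARA in a rare form of promyelocytic leukaemia, had 0.383, 0.413 and 0.439 FPKM with oeBCL6B and 0.512, 0.560 and 0.407 FPKM in controls, overlapping, with an exact permutation p of 0.3. Others were not separate: the exact permutation p was 0.7 for ZBTB20 and ZBTB38, 0.6 for ZBTB8A, and 0.9 for HIC1 and ZBTB7C.

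Some of these levels are less sure because exons are shared with other genes and the use of strand in counting is not given. ZBTB20 shares 49.7% of its exonic bases, mostly with AC093010.3 on the same strand, HIC1 29.8% with SMG6 on the opposite strand and ZBTB8A 25.2% with AL033529.1 on the same strand. Of the members that passed, ZBTB46 shares 7.74% with the opposite-strand AL121845.1. No member had a copy of at least 98% identity over 200 bases in another gene.

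**Figure D4:**
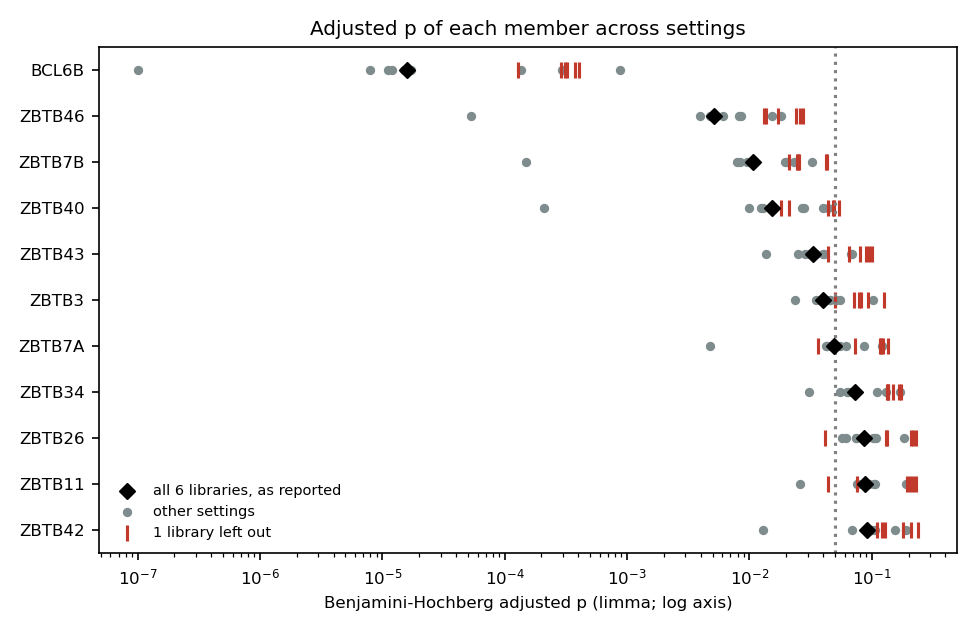
Benjamini-Hochberg adjusted p of the members with an adjusted p under 0.1, on a log axis; the diamond is the reported value, grey dots are other settings, red bars leave out 1 library, and the dotted line is 0.05. BCL6B, ZBTB46 and ZBTB7B stay left of the line in every setting drawn, and ZBTB43, ZBTB3 and ZBTB7A cross it.

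Genes that work with the family were read from lists. These were chosen with earlier results of these data known, so their shares are descriptions only. Of the BCL6-type corepressors, 18 of 19 were tested, 3 were higher and 1 lower, 22.2% against 18.3% of all genes, with a median log2 change of 0.027. TBL1X, a subunit of the NCOR complex, had 6.74, 6.67 and 7.02 FPKM with oeBCL6B and 5.30, 5.06 and 5.39 FPKM in controls (limma adjusted p = 0.0095), and HDAC4, a class IIa deacetylase, had 3.15, 2.81 and 3.12 FPKM with oeBCL6B and 4.44, 3.88 and 4.44 FPKM in controls (0.0159). Both pairs of groups were separate. HDAC7 and HDAC5, of the same deacetylase class, were higher (adjusted p 0.0352 and 0.0384). TBL1X held in all 6 leave-one-out fits. HDAC4 did not hold without oeBCL6B replicate 2 or control replicates 1 or 3 (adjusted p 0.0572 to 0.0623), HDAC7 held only without oeBCL6B replicates 1 or 3, and HDAC5 only without oeBCL6B replicate 1. HDAC1 had the highest level, 43.7 FPKM with oeBCL6B and 42.4 FPKM in controls, and did not pass.

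Of the described BCL6 target genes, 19 of 23 were tested, 4 were higher and 2 lower, 31.6% against 18.3% of all genes, with a median log2 change of 0.036. CDKN1A, the cell-cycle inhibitor p21, had 2.40, 2.72 and 2.29 FPKM with oeBCL6B and 0.499, 0.432 and 0.548 FPKM in controls. It met the filter only through the oeBCL6B libraries, and it counts in the shares of this list and the next. Neither share was recomputed without CDKN1A. The lists were chosen with earlier results of these data known, so neither share is read as a result about its list. CCND1, cyclin D1, had 8.66, 8.01 and 8.40 FPKM with oeBCL6B and 5.45, 5.09 and 5.20 FPKM in controls. CD69, an activation antigen, had 5.03, 4.25 and 4.78 FPKM with oeBCL6B and 2.65, 1.98 and 2.42 FPKM in controls. In all 3 the groups were separate (limma adjusted p 0.000732, 0.00177 and 0.00448). ATR, a DNA damage kinase, was lower, with 3.20, 2.97 and 3.05 FPKM with oeBCL6B and 4.44, 4.09 and 4.09 FPKM in controls (adjusted p = 0.0118), and lost the call only without control replicate 1, at 0.0501. CCL3 was also higher and CD44 lower; these 2 are named after their values were seen. MYC had the highest level, 71.7 FPKM with oeBCL6B and 76.5 FPKM in controls, and did not pass.

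Of the described targets of other members, 8 of 12 were tested, with a median log2 change of -0.074, and 2 were higher, 25.0% against 18.3% of all genes. They were CDKN1A, which with MYC is also in the BCL6 list, and SLC2A3, a glucose transporter. Since CDKN1A met the filter only through the oeBCL6B libraries, the 25.0% is a description only, and SLC2A3 is the only other gene behind it. SLC2A3 had 70.0, 66.9 and 65.7 FPKM with oeBCL6B and 46.9, 43.3 and 43.4 FPKM in controls (limma adjusted p = 0.00122). PKM had the highest level, 121 FPKM with oeBCL6B and 129 FPKM in controls, and did not pass. Of the CUL3 ligase and turnover genes all 13 were tested, with a median log2 change of -0.053, and 1 was lower, 7.69% against 18.3% of all genes. It was NAE1, a subunit of the NEDD8-activating enzyme, with 33.9, 32.7 and 30.5 FPKM with oeBCL6B and 37.9, 38.5 and 38.3 FPKM in controls (adjusted p = 0.0216), whose call held only without oeBCL6B replicates 1 or 3. UBE2M had the highest level, 93.9 FPKM with oeBCL6B and 86.7 FPKM in controls, and neither it nor CUL3 passed. These lists were described by counts, with no set test.

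**Figure D5:**
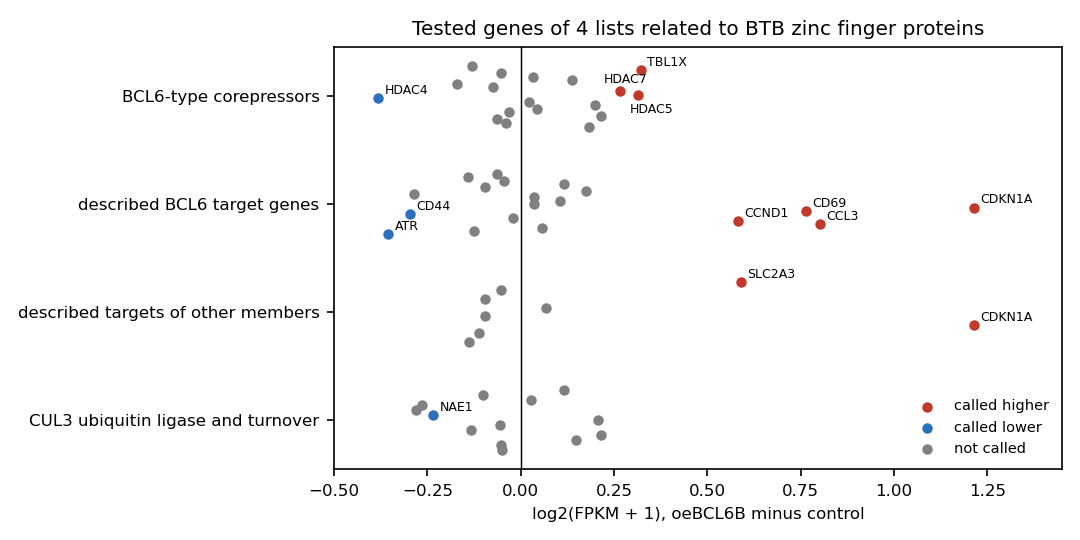
Difference of mean log2(FPKM + 1), oeBCL6B minus control, for tested genes in 4 lists related to BTB zinc finger proteins, 1 point per gene, with genes that passed named. CDKN1A, at 1.22, is the farthest right and appears in 2 lists.

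For comparison, BTB genes without zinc fingers (KLHL, KBTBD and BTBD names) gave 0 higher and 2 lower of 34 tested, 5.88%, and zinc finger genes named ZNF gave 12 higher and 26 lower of 344, 11.0%. Their median log2 changes were -0.017 and -0.048. The family's 7 of 37, or 6 of 36 without the introduced BCL6B, stands beside these as a description, and the difference was not tested. MYNN, GZF1 and ZNF131, which the table classes with the family but the name rule leaves out, did not pass (adjusted p 0.154, 0.710 and 0.643).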

How the data were processed

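Libraries were poly(A) RNA of U937 cells, strand-marked with dUTP, per the labels' protocols. The values are FPKM, deposited by the authors with gene lengths, 1 column per library, per the file headers. The submitters' processing notes name cutadapt 1.9 and GRCh38. Aligner, counter and use of strand: not given in the sources used here. FPKM times gene length gave whole reads for 100% of 139702 values above 0, within 0.01. A limit of 3 counts for a count of 0 covers counting error only.

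Limma 3.58.1 (R 4.3.3), fitted with a trend of variance on mean and two-sided, set the groups against each other on log2(FPKM + 1). Genes entered with 0.5 FPKM or more in 3 or more libraries, and Benjamini-Hochberg adjustment ran over all 14662 genes tested, at 0.05. A log2 change on this scale understates the change of low genes. Members below the filter had a two-sided exact permutation test. The fit was also run on simulated reads, with known changes placed in a small set of genes with many reads. The spread in that run was fixed and not taken from these data, so it does not measure the error rate here. Sequence overlaps used GENCODE 29 and BLAST 2.17.0, and promoters RefSeq.

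The members and lists were chosen with earlier results of these data known. Text names every member. Values of each library are given for members that passed, for BCL6B and BCL6, for the 5 most abundant and for others discussed singly. In each list, the 4 smallest adjusted p that passed and the highest level are named. Some exon overlaps and list genes are not reported here.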

Additional observations from a re-analysis of the deposited data

How the results depend on the processing

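None of the 7 members that passed changed sign under any alternative run. Over single genes and alternatives, 59 values lost and 10 gained a call. With all genes in the same settings, 2687 of 14662 genes passed, 1588 of 30382 without a filter, 807 at an adjusted p of 0.01 and 4054 at 0.1. Of members, 7 of 37 passed, with 4 of 45 without a filter, 2 at 0.01 and 11 at 0.1. Voom on the recovered reads gave 3680 of 14662 genes and 13 of 37 members. Of those higher (5), voom gave 9 and 0.01 gave 2. Of those lower (2), there were 0 without a filter and at 0.01, 1 with median ratio scaling and 4 by voom and at 0.1. Of corepressors (4), there were 2 without a filter, with TPM rescaling and without a trend, 7 by voom, 1 at 0.01 and 8 at 0.1. Of BCL6 targets (6), there were 3 at 0.01. Of CUL3 genes (1), there were 2 with TPM rescaling, 5 by voom, 0 at 0.01 and 4 at 0.1. The cause was not tested.

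With 1 library left out, 3 (control replicate 3) to 6 members passed, 3 to 5 higher and 0 to 2 lower, and 4 without oeBCL6B replicate 2 or control replicate 1. They were not always among the 7. Without control replicate 2, ZBTB11 and ZBTB26 were gained as lower, and without oeBCL6B replicate 3, ZBTB17 was. In both fits ZBTB3, ZBTB43 and ZBTB7A were lost. All genes numbered 1222 to 2272, corepressors 1 to 4, BCL6 targets 5 to 6, other targets 2 to 3 and CUL3 genes 0 to 1. These fits have fewer samples.

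With the replicate number as a block, 5 members passed, all higher (0 lower), with ZBTB12 gained and ZBTB3, ZBTB43 and ZBTB7A lost, and 2 CUL3 genes. Deviations of libraries with the same number correlated at 0.0511, 0.110 and -0.00189, and oeBCL6B replicate 3 correlated best with control replicate 1, so the numbers were not taken to pair the libraries. Levels rest on few reads for members below the filter, and differences there were not detectable at this depth unless large.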
